A study of Mus musculus with 4 samples.

Results

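The Cxcr4 chemokine axis was followed in mouse retinal organoids through 3 genes: Cxcr4, the receptor of the chemokine Cxcl12, Cxcl12 itself, and Ackr3, the atypical receptor that scavenges Cxcl12. They are the rows of the deposited table that carry these 3 symbols, out of 55426 rows. The set was chosen from the FPKM of Cxcr4, which was known to be among the genes with the lowest differences between the Dox and untreated libraries. The levels of the 3 genes are therefore given as a description, with no test. Organoids are aggregates of pluripotent stem cells differentiated in culture, here taken at day 6. Per the labels, a single line supplied the 4 libraries: a Mettl3 knockout carrying an Rx:GFP reporter and a doxycycline-inducible HA-METTL3. METTL3 is the enzyme that deposits N6-methyladenosine on messenger RNA. The 2 untreated libraries received no doxycycline and the 2 Dox libraries received 2 µg/ml for 6 days. Both groups were grown in the same medium, with 5% KSR and 0.1 µM of a compound the labels call AGN. The titles carry the code EV or EV+Dox, whose meaning is not given, and whether METTL3 protein was induced was not measured.

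Cxcl12, also called stromal cell-derived factor, binds Cxcr4, a receptor that couples to inhibitory G proteins and directs cell migration. Ackr3 binds the same ligand, signals through arrestins rather than G proteins, and takes Cxcl12 up for degradation, which shapes the gradient that Cxcr4-bearing cells read. In the developing brain this system guides Cajal-Retzius neurons, interneurons and granule cell precursors, and in the eye it acts on the axons of retinal ganglion cells. Bulk RNA cannot tell fewer cells of a type from less RNA per cell, and this holds for every value below.

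Cxcr4 (ENSMUSG00000045382) is annotated on the minus strand at chr1:128588199-128592293 and Ackr3 (ENSMUSG00000044337) on the plus strand at chr1:90203980-90216751. Cxcl12 (ENSMUSG00000061353) lies on the plus strand at chr6:117168535-117181367. These positions are those of GENCODE M21 on GRCm38, the assembly also called mm10, which the submitters' processing notes name. All 3 are protein-coding, and no annotated exon of another gene overlaps theirs, so the unknown strand setting of the counting does not touch them. The 250 bases before the RefSeq start of each gene (GRCm38.p6) are printed because the receptors were both lower with Dox while the ligand was not. Capitals mark 4 motifs, searched on both strands and picked after the sequences had been read. They are the TATA box TATAAA, the core of the NRF1 site, GCATGCG, the GC box GGGCGG, and the TCF/LEF site ATCAAAG.
Cxcr4 promoter, chr1:128592300-128592549, minus strand: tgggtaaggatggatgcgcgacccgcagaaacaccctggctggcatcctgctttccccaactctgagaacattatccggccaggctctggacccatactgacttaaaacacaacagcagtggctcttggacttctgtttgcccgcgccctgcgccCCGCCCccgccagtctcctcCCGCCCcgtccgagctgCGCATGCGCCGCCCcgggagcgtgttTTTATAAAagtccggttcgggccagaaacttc
Ackr3 promoter, chr1:90203730-90203979, plus strand: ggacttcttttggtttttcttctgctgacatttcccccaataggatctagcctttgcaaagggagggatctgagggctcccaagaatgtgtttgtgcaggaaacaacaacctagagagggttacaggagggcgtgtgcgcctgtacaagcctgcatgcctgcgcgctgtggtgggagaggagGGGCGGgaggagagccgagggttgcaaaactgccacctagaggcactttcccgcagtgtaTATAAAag
Cxcl12 promoter, chr6:117168285-117168534, plus strand: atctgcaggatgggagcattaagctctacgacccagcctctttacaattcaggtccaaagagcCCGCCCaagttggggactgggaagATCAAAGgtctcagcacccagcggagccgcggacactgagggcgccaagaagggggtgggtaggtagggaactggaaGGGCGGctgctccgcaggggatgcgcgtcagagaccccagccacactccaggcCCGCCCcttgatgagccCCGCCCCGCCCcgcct

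The Cxcr4 promoter held TATAAA from 30 to 25 bases before the start, inside a run that also matches on the other strand from 32 to 27 bases. It further held the NRF1 core from 57 to 51 bases before the start, with an overlapping match on the other strand from 58 to 52 bases. Of its 3 GC boxes the nearest, from 50 to 45 bases, directly follows that core. Ackr3 held TATAAA from 8 to 3 bases before its annotated start and 1 GC box. Cxcl12 had no TATAAA in this window and carried 5 GC boxes and 1 ATCAAAG from 163 to 157 bases before the start. Among 32851 RefSeq promoters of the same length, 12.4% held the TATA box, 3.02% the NRF1 core, 32.7% the GC box and 3.21% the TCF/LEF site. These matches describe letters and show no binding.

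The motif GGACT, a common core of N6-methyladenosine sites, was counted in the longest protein-coding transcript of each gene, since the line concerns METTL3. It occurred 1 time in the 1805 nt of Cxcr4, 3 times in the 3065 nt of Ackr3 and 10 times in the 5627 nt of Cxcl12. Per kilobase these are 0.554, 0.979 and 1.78, against a median of 1.05 over 11629 tested genes with such a transcript. Cxcr4 thus had a higher density than 20.5% of those genes, Ackr3 than 45.9% and Cxcl12 than 83.4%. Methylation itself was not measured in these libraries.

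Values are FPKM, fragments scaled to transcript length and library depth, so levels can be set side by side between genes. The low values of the table move in steps of 1 fragment, which put the depth at 31980000 to 34360000 fragments per library. Mettl3 was listed at 40.33 and 37.98 FPKM in untreated replicates 1 and 2 and at 45.2 and 46.37 FPKM in Dox replicates 1 and 2. FPKM of a whole gene cannot tell the disrupted locus from the inducible copy. eGFP was listed at 0.26 and 0.42 FPKM without Dox and at 333.52 and 361.13 FPKM with it. Over the 13931 genes whose mean reached 1 FPKM, libraries of one group correlated at r = 0.990 and 0.987 and libraries of different groups at 0.960 to 0.966; genes are not replicates. Of those genes 9.31% passed an adjusted p of 0.05 between the groups in limma, 4.44% higher and 4.87% lower with Dox, and 53.4% had groups that did not overlap. The labels do not say whether replicates came from separate cultures, so p-values measure only the spread between these samples.

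Cxcr4 was abundant without Dox and low with it. It stood at 49.25 FPKM in untreated replicate 1 and at 52.32 FPKM in untreated replicate 2. With Dox it stood at 4.51 FPKM in replicate 1 and at 3.53 FPKM in replicate 2. Both Dox libraries lay far below both untreated libraries, and the gap between the groups was many times the distance between replicates. The untreated mean of 50.8 ± 2.17 FPKM compared with 4.02 ± 0.693 FPKM in the Dox libraries (SD, n = 2 each), or 7.92% of it. The untreated level was 12.6-fold higher by the means and between 10.9-fold and 14.8-fold higher in the 4 possible pairs of libraries. On the log2(FPKM + 1) scale the difference was -3.37, with a pooled replicate SD of 0.148, and ranked 13 from the lowest among the 13931 tested genes, where 4.87% of genes were called lower. Of the genes with a value above 0, Cxcr4 exceeded 88.9% and 89.7% in the untreated libraries and 55.0% and 52.1% in the Dox libraries. If its fragments came from the longest transcript, they numbered about 2473 and 2831 without Dox and 225 and 182 with it, and if from the shortest, 1051, 1208, 95 and 77.

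Ackr3 was a low-level gene in both groups and was also lower with Dox. Its values were 3.41 and 3.55 FPKM in untreated replicates 1 and 2 and 1.82 and 1.84 FPKM in Dox replicates 1 and 2. The groups did not overlap, and the replicates of each lay close together. The means were 3.48 ± 0.0990 and 1.83 ± 0.0141 FPKM (SD, n = 2 each), which leaves 52.6% of the untreated level. Ackr3 was 1.85-fold to 1.95-fold higher without Dox in the 4 pairs of libraries. The log2(FPKM + 1) difference was -0.66, with a pooled replicate SD of 0.0231, which placed it 566 from the lowest among tested genes. From the longest transcript (3065 nt) these values would correspond to about 309, 346, 164 and 171 fragments in the same order of libraries, and from the shortest (404 nt) to 18, 21, 9 and 10.

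Cxcl12, the ligand, had the lowest levels of the 3 genes and went the other way. It was listed at 0.54 and 0.56 FPKM in untreated replicates 1 and 2 and at 1.03 and 0.91 FPKM in Dox replicates 1 and 2. Each Dox value exceeded each untreated value. Group means were 0.550 ± 0.0141 and 0.970 ± 0.0849 FPKM (SD, n = 2 each), a 1.76-fold higher mean with Dox and 1.62-fold to 1.91-fold in the pairs. Its mean of 0.760 FPKM over the 4 libraries is under the 1 FPKM minimum, so Cxcl12 was not among the tested genes. The log2(FPKM + 1) difference was 0.35, a scale on which changes of such low genes are understated. Cxcl12 has transcripts of very different lengths, and its fragments numbered about 93, 104, 178 and 162 if all came from the longest (5627 nt) and 28, 32, 54 and 49 if all came from the shortest (1878 nt). In all 3 genes the groups did not overlap, as was so for 53.4% of the tested genes.

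**Figure D1:**
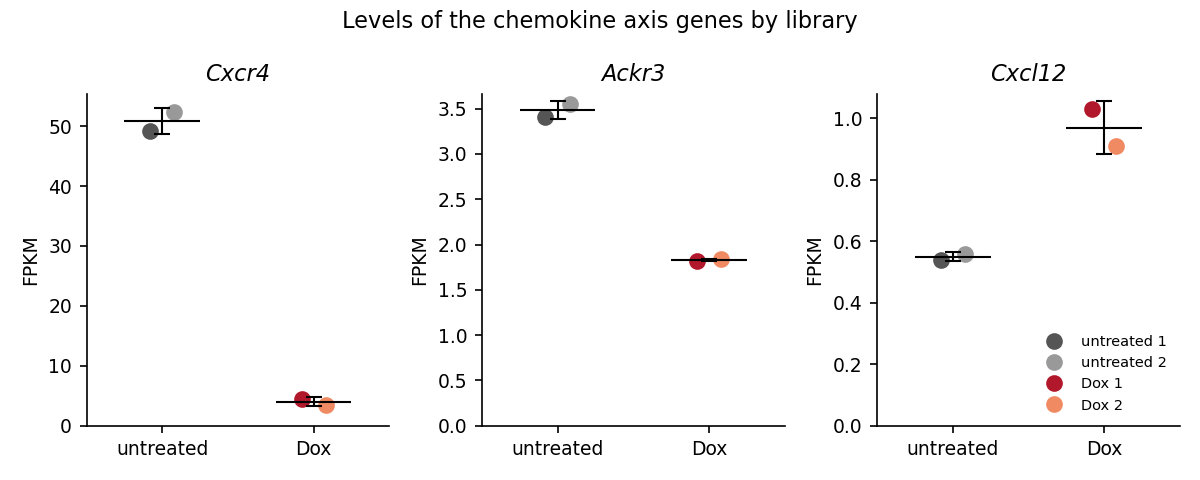
FPKM (y axis, from 0, own scale in each panel) of Cxcr4, Ackr3 and Cxcl12 in the 2 untreated and 2 Dox libraries, with the group mean (line) and SD (bar, n = 2). Cxcr4 sits at 50.8 and 4.02 FPKM, Ackr3 sits at 3.48 and 1.83 FPKM, and Cxcl12 at 0.550 and 0.970 FPKM.

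The balance between the 3 genes differed between the groups. Per library, FPKM of Cxcr4 was 14.4 and 14.7 times that of Ackr3 without Dox and 2.48 and 1.92 times with it. Relative to Cxcl12 the level of Cxcr4 was 91.2 and 93.4 times higher without Dox and 4.38 and 3.88 times higher with it. The scavenger was also lower relative to the ligand, with 6.31 and 6.34 FPKM of Ackr3 per FPKM of Cxcl12 without Dox and 1.77 and 2.02 with it. The receptors stayed above the ligand in each of the 4 libraries. Cxcr4 made up 92.6% and 92.7% of the summed FPKM of the 3 genes in the untreated libraries and 61.3% and 56.2% in the Dox libraries.

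No other chemokine receptor came near these levels. The list of 24 further chemokine receptors, typical and atypical, had 0 genes at a mean of 1 FPKM, so none was tested, and 6 of them were listed at 0 in all 4 libraries. The highest single value was 0.47 FPKM, for Ackr1, the atypical receptor of red cells and endothelium, named after its value was seen. Their summed FPKM was 1.98 and 1.5 without Dox and 1.47 and 1.71 with it. Cxcr4 therefore held 90.1% and 91.2% of the summed FPKM of all 26 chemokine receptors in the untreated libraries, and 57.8% and 49.9% in the Dox libraries. The share of Ackr3 was 6.24% and 6.19% without Dox and 23.3% and 26.0% with it, although its own level was lower there.

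**Figure D2:**
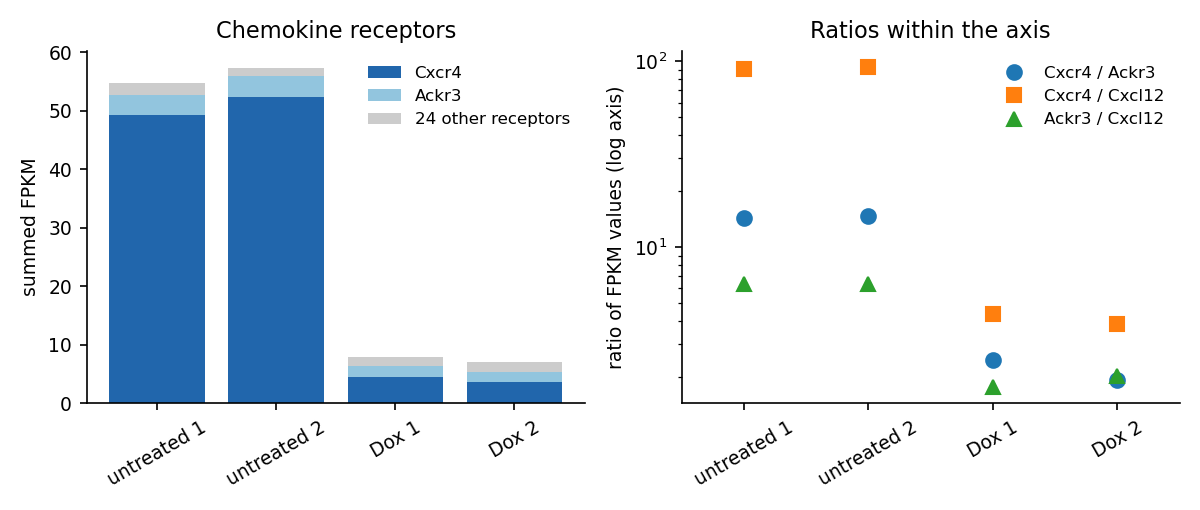
Left, summed FPKM of Cxcr4, Ackr3 and 24 other chemokine receptors stacked for each library (y axis from 0). Right, ratios of FPKM between the 3 genes of the axis in each library on a log axis; Cxcr4 per Cxcl12 goes from 91.2 and 93.4 without Dox to 4.38 and 3.88 with it.

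Chemokine ligands other than Cxcl12 were mostly low or listed at 0, and 2 of the few that were detected fell. Of 37 listed ligands 4 were tested, of which 2 were lower, 0 higher and 2 not called in limma. Of all tested genes 4.87% were called lower. The unadjusted p below 0.05 gave the same counts. For the unadjusted p no share of all tested genes was counted, here or in the lists below. Cx3cl1, the membrane-anchored chemokine fractalkine, was at 21.96 and 21.31 FPKM without Dox and at 3.51 and 4.18 FPKM with it. It fell by 2.23 on the log2 scale (SE 0.104, adjusted p = 2.52e-04 in limma). Ccl17, a chemokine of activated dendritic cells, was at 3.90 and 3.82 FPKM without Dox and at 0.23 and 0.67 FPKM with it, and fell by 1.76 (SE 0.180, adjusted p = 0.00356 in limma). Ccl27a and Ccl25 kept to 24.1 to 25.09 and 17.9 to 22.14 FPKM over the 4 libraries, with adjusted p-values of 0.821 and 0.791 in limma. Exons of Ccl27a overlap Il11ra1 on the opposite strand, so its level is uncertain. The median log2 difference of the 4 was -0.86, beside -0.0042 over all tested genes. A further 18 ligands were listed at 0 in all 4 libraries, and the highest value among the 33 untested was 1.02 FPKM, for Cxcl16. Without the minimum on the mean, the adjusted p of Ccl17 was 0.0506 in limma.

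Further ligands of Cxcr4 or Ackr3, and molecules linked to these ligands or receptors, went both ways. Of 12 listed genes 7 were tested, with 2 higher, 1 lower and 4 not called in limma, beside 9.31% called of all tested genes. Penk encodes proenkephalin, a source of opioid peptides that Ackr3 also takes up. It was at 0.44 and 0.12 FPKM without Dox and at 3.73 and 3.91 FPKM with it, a log2 difference of 1.92 (SE 0.166, adjusted p = 0.00199 in limma). Pnoc, on the same list and untested, went the other way, at 1.00 and 0.97 against 0.12 and 0.11 FPKM. Ramp2 and Ramp3 encode membrane partners of the adrenomedullin receptor, whose ligand Ackr3 can also scavenge, and they moved in opposite directions. The receptor gene itself, Calcrl, was untested at 0.15 and 0.32 against 0.44 and 0.27 FPKM. Ramp2 fell by 1.21 on the log2 scale, from 12.96 and 12.78 to 5.50 and 4.52 FPKM (adjusted p = 0.00256 in limma). Ramp3 rose by 0.82, from 4.24 and 3.78 to 8.16 and 7.53 FPKM (adjusted p = 0.00879 in limma). Mif, a cytokine that can also act on Cxcr4, was far more abundant than Cxcl12, at 1578.66 and 1706.45 FPKM without Dox and 1716.77 and 1616.08 FPKM with it, and the groups overlapped. Hmgb1, a nuclear protein that forms a complex with Cxcl12, was at 1045.48 and 1052.09 against 945.76 and 896.73 FPKM, with an adjusted p of 0.274 in limma. Adrenomedullin itself, Adm, stood at 3.77 and 2.89 against 2.32 and 2.78 FPKM (adjusted p = 0.337 in limma). The median log2 difference of the 7 tested genes was -0.19. Exons of Penk and Ramp3 overlap a gene on the opposite strand and those of Ramp2 overlap Vps25 on the same strand. The call of Ramp3 was lost without untreated replicate 2 (adjusted p = 0.0641 in limma), without Dox replicate 1 (0.0746) and without Dox replicate 2 (0.0623), and so was the count of 2, which became 1.

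Downstream of the receptor, the G protein and kinase genes differed little, with a single exception. Of 45 listed genes 41 were tested, of which 1 was higher, 0 lower and 40 not called in limma. The 1 called gene is 2.44% of those tested, against 9.31% of all tested genes, and the median log2 difference was -0.04. Unadjusted, 6 had a p below 0.05 with higher and 4 with lower values, with no share of all tested genes counted beside it. The exception was Gnai1, an inhibitory G protein alpha subunit of the class to which Cxcr4 couples. Its values were 4.44 and 4.50 FPKM without Dox and 22.58 and 26.24 FPKM with it, a rise of 2.21 on the log2 scale (SE 0.102, adjusted p = 2.51e-04 in limma). Its paralogs were more abundant: Gnai2 stood at 248.13 and 226.26 against 190.27 and 212.35 FPKM (adjusted p = 0.187 in limma). Gnai3 stood at 75.25 and 75.49 against 72.75 and 70.53 FPKM (adjusted p = 0.542 in limma). Pak1, a kinase that acts on the actin skeleton below Rac1, had the lowest difference of the tested genes, -0.40 (adjusted p = 0.0725 in limma).

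Genes that switch off, internalise or degrade the receptors all reached the minimum level, and 1 of the 15 (6.67%) was called, beside 9.31% of all tested genes. Grk3, a kinase that phosphorylates activated receptors, was at 2.04 and 1.76 FPKM without Dox and at 0.64 and 0.86 FPKM with it, and fell by 0.73 on the log2 scale (SE 0.144, adjusted p = 0.0368 in limma). Its paralog Grk2 was at 27.61 and 31.31 against 25.01 and 28.87 FPKM, with overlapping groups (adjusted p = 0.530 in limma). The arrestin genes Arrb1 and Arrb2, through which Ackr3 signals, had log2 differences of 0.17 and -0.03 (adjusted p = 0.410 and 0.883 in limma). Itch, the ubiquitin ligase that sends Cxcr4 to lysosomes, had 0.13 (adjusted p = 0.392 in limma). Counts were 0 higher and 1 lower in limma, or 1 and 1 by the unadjusted p, with a median log2 difference of 0.06. The call of Grk3 was lost when any one library was left out, with adjusted p-values in limma of 0.133 without untreated replicate 1, 0.0921 without untreated replicate 2, 0.132 without Dox replicate 1 and 0.0940 without Dox replicate 2.

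Outside the cell, Cxcl12 is held by heparan sulfate and cut by proteases, and 6 of 25 tested genes of these functions passed the threshold, 4 higher and 2 lower, where 4.44% and 4.87% of all tested genes were. The median log2 difference was -0.05. Of the listed matrix proteases Mmp2 and Mmp14 rose, while Mmp9 was untested at 0.27 and 0.17 against 0.28 and 0.16 FPKM. Mmp2 was at 18.08 and 17.46 FPKM without Dox and at 29.11 and 31.9 FPKM with it, a log2 difference of 0.75 (adjusted p = 0.00412 in limma). Mmp14, the membrane protease that activates Mmp2, was at 17.36 and 15.49 against 29.44 and 34.89 FPKM, a difference of 0.93 (adjusted p = 0.00602 in limma). Hs3st1, a heparan sulfate sulfotransferase, rose from 1.77 and 1.64 to 6.76 and 7.54 FPKM, by 1.59 (adjusted p = 0.00102 in limma). Gpc4, a glypican that carries heparan sulfate, rose from 17.84 and 16.91 to 27.6 and 29.46 FPKM, by 0.68 (adjusted p = 0.00518 in limma). Sulf2, which removes sulfate groups from heparan sulfate outside the cell, fell from 81.83 and 72.07 to 47.48 and 54.69 FPKM. It fell by 0.58 on the log2 scale (adjusted p = 0.0242 in limma), and its exons overlap Ncoa3 on the opposite strand. Ext1, which builds the chain, fell by 0.38 (adjusted p = 0.0428 in limma) and is named because it completes the count, after its values were seen. Both of these calls were lost in each fit without one library: the adjusted p in limma ranged from 0.0626 (without untreated replicate 2) to 0.135 for Sulf2 and from 0.142 to 0.244 for Ext1, which leaves 0 lower. Without Dox replicate 2 the count higher was 2 instead of 4, since Mmp14 (adjusted p = 0.0506 in limma) and Gpc4 (0.0552) were lost.

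**Figure D3:**
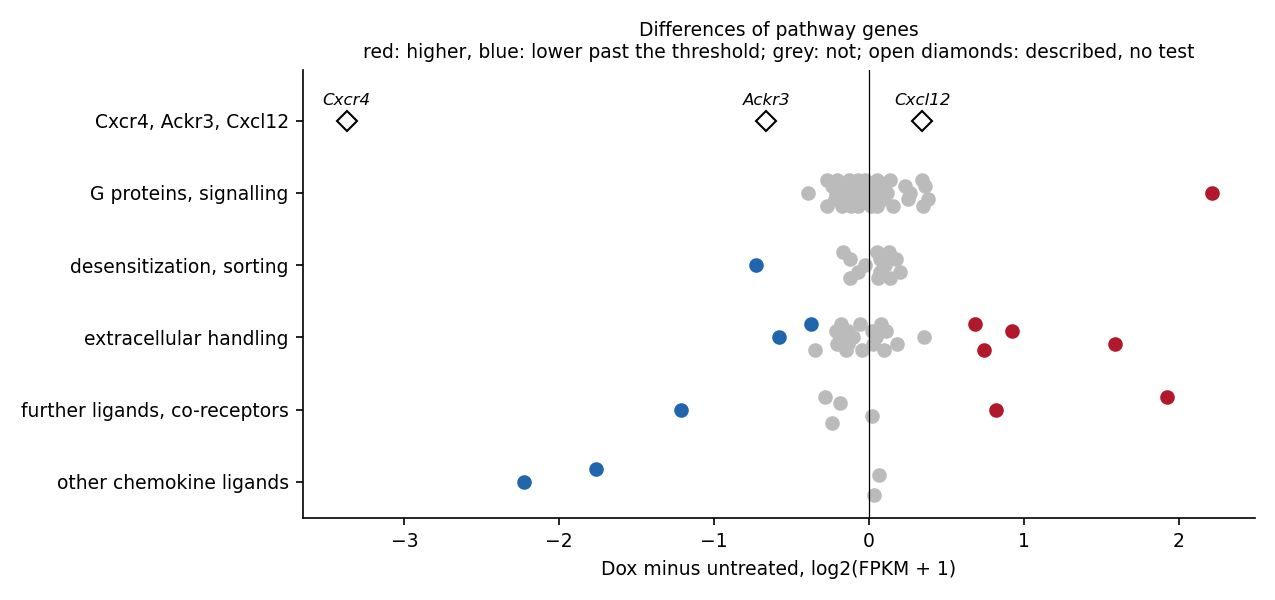
Difference of Dox minus untreated in log2(FPKM + 1) (x axis) for each tested pathway gene, 1 point a gene, in 5 lists (rows), with Cxcr4, Ackr3 and Cxcl12 as open diamonds on top. Red and blue points passed the threshold in limma; the signalling list is grey except for Gnai1 at 2.21, and Cxcr4 lies at -3.37.

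The genes whose pattern over the 4 libraries was closest to that of Cxcr4 were sought among the tested genes with an established symbol. Likeness was the root mean square difference of log2(FPKM + 1) after each gene was centred on its own mean, and smaller is closer. Rspo3 was closest at 0.106, a secreted enhancer of Wnt signalling, with 35.79 and 36.75 FPKM without Dox and 2.72 and 2.73 FPKM with it. Pou3f3, a POU transcription factor of the forebrain, followed at 0.110 with 17.96 and 18.01 against 1.06 and 0.98 FPKM. Sox10, a transcription factor of neural crest and glia, was at 0.127, Wnt7b, a Wnt ligand, at 0.136 and Rspo2, a further R-spondin, at 0.171. All 5 were high in both untreated libraries and low in both Dox libraries, as the measure requires. With a pseudocount of 0.1 or of 5 in place of 1, 2 of these 5 genes were again among the closest. Exons of Rspo3 and Wnt7b each overlap a gene on the opposite strand.

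The neighbours of the other 2 genes were less fixed, and at their low levels the pseudocount shapes which genes lie close. Ackr3 was closest to Traf6, an adaptor of innate immune receptors (0.0156), Fbln2, an extracellular matrix protein (0.0201), Tex15, Ddit4l and Dnm1, the neuronal dynamin (0.0307). Fbln2 had nearly the same levels as Ackr3, at 3.4 and 3.48 FPKM without Dox and 1.71 and 1.81 FPKM with it. Cxcl12 was closest to Tmco3 (0.00163), Prdx6, an antioxidant enzyme (0.00422), Orai1, a calcium channel (0.0146), Gpr180 and Zc4h2 (0.0173). Prdx6 was far more abundant than Cxcl12, at 191.46 and 195.53 FPKM without Dox and 254.13 and 238.94 FPKM with it. Means of Prdx6 (193 and 247 FPKM) and Tmco3 (11.2 and 14.5 FPKM) rose by less than the 1.76-fold of Cxcl12. Likewise Traf6, with means of 23.2 and 14.5 FPKM, fell relatively less than Ackr3. Such matches hold on log2(FPKM + 1) and not in fold of FPKM. With a pseudocount of 0.1 or 5, 1 of the 5 was shared for Ackr3 and 0 for Cxcl12. Exons of Orai1 overlap a gene on the opposite strand.

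**Figure D4:**
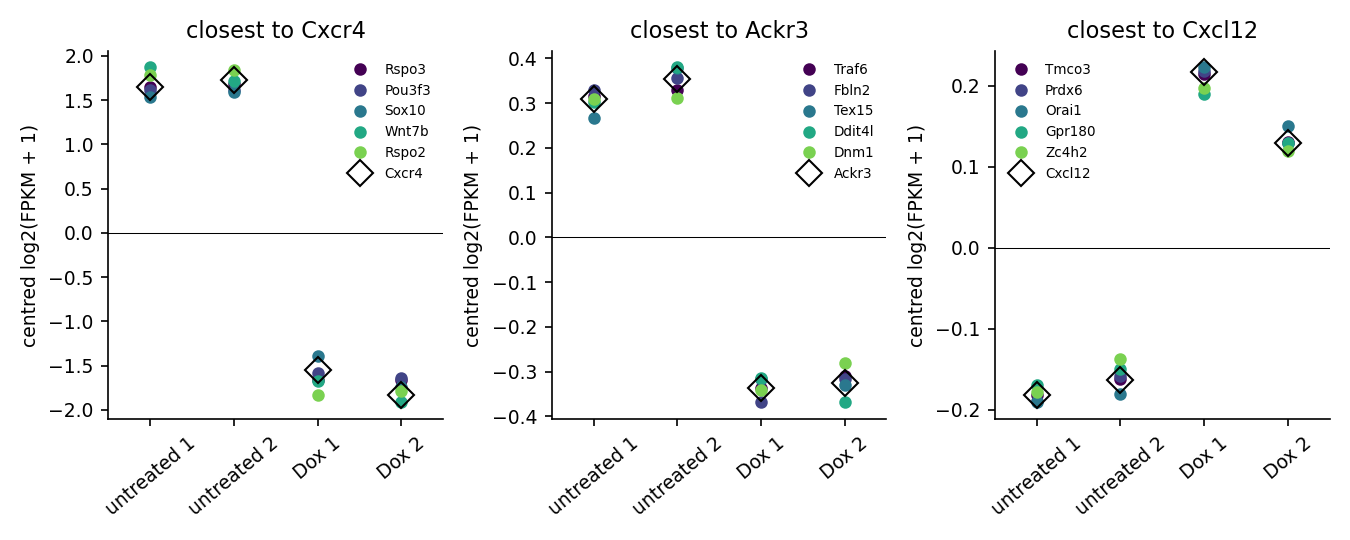
Centred log2(FPKM + 1) (y axis, 0 is the gene's mean over the 4 libraries; scales differ) of Cxcr4, Ackr3 and Cxcl12 (open diamonds) and of the 5 tested genes closest to each (points), by library. Rspo3, at 0.106 from Cxcr4, follows it from the untreated to the Dox libraries.

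Cell types known to carry Cxcr4 were read through marker lists, and the sums of several lists were also lower with Dox. The markers of dorsal forebrain and cortical hem summed to 253 and 242 FPKM without Dox and to 40.5 and 35.0 FPKM with it, with 5 of 6 tested genes lower and 1 higher in limma, beside 4.87% and 4.44% of all tested genes. Markers of Cajal-Retzius neurons summed to 44.2 and 41.6 FPKM without Dox and to 9.10 and 8.29 FPKM with it, 3 of 3 tested genes lower out of 8 listed. Most of that sum was Lhx5, a factor also present in progenitors, and without it the sums were 6.75 and 6.80 against 2.61 and 2.53 FPKM. Reln, the secreted protein that defines these neurons, was at 0.35 and 0.41 FPKM without Dox and at 1.13 and 0.89 FPKM with it. Of the other untested markers, Trp73 (0.10 and 0.09 against 0.09 and 0.06 FPKM) did not separate the groups. Neither did Calb2 (0.44 and 0.27 against 0.34 and 0.23 FPKM). Ebf2 (1.01 and 1.09 against 0.22 and 0.20 FPKM) and Lhx1 (0.45 and 0.22 against 0.10 and 0.06 FPKM) were lower with Dox. Markers of immature neurons summed to 151 and 146 against 80.1 and 84.0 FPKM, 7 of 7 tested genes lower, with Tubb3 as the largest part. Neural crest markers summed to 34.7 and 33.3 against 9.57 and 7.90 FPKM, with 4 of 6 lower and 2 not called. The 2 not called, Snai2 and Tfap2a, were higher with Dox, and their groups did not overlap. Their log2 differences were 0.45 and 0.14 (adjusted p = 0.0966 and 0.49 in limma). By the unadjusted p, 1 gene of this list was higher and 4 were lower. The part of these marker lists in the level of Cxcr4 was not tested.

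Markers of other Cxcr4-bearing or Cxcl12-producing types were low for endoderm and for blood and microglia, and differed from gene to gene in the rest. Definitive endoderm, in which Cxcr4 is a common surface marker, had 0 of 9 genes at the minimum, with sums of 1.44 to 1.47 FPKM without Dox and 1.27 to 1.44 FPKM with it and Cer1 at 0 throughout. Blood and microglia markers summed to 1.59 to 1.69 and 1.79 to 1.85 FPKM, most of it Cd68, with Tyrobp at 0 in all 4 libraries. Without Cd68 the sums were 0.16 and 0.29 against 0.34 and 0.44 FPKM. Of the retinal ganglion cell markers 1 of 6 was tested, Pou4f1, which fell from 9.64 and 9.27 to 1.30 and 1.06 FPKM (adjusted p = 3.37e-04 in limma). Of all tested genes 4.87% were called lower. Among the 5 untested, Atoh7 (0.77 and 0.94 against 0.18 and 0.18 FPKM) and Sncg (0.91 and 1.12 against 0.62 and 0.35 FPKM) were lower. Isl1 was at 0.85 and 0.90 against 0.88 and 1.07 FPKM, and Pou4f2 and Isl2 reached at most 0.05 and 0.17 FPKM. Endothelial markers summed to 1.93 and 1.70 against 15.9 and 20.2 FPKM, and most of the higher sum was Kdr, a receptor gene that retinal progenitors also express. Without Kdr the sums were 1.71 and 1.45 against 1.98 and 2.59 FPKM, most of it Esam and Pecam1. Of the untested endothelial genes, Cdh5 was at 0.05 and 0.01 against 0.43 and 0.61 FPKM and Tek at 0.02 and 0.08 against 0.20 and 0.28 FPKM. Esam went the other way, at 0.83 and 0.72 against 0.68 and 0.60 FPKM. The groups did not overlap in these genes, as was so for 53.4% of the tested genes. Cldn5 was at 0.16 and 0.10 against 0.03 and 0.10 FPKM, with overlap. Mesenchyme and meninges, the main source of Cxcl12 around the brain, summed to 15.8 and 13.3 against 24 and 20.9 FPKM. Of 5 tested genes 1 was higher (Col1a2) and 0 lower in limma, beside 4.44% and 4.87% of all tested genes. By the unadjusted p the counts were 2 and 1. Without Col1a2 the list summed to 13.3 and 11.4 against 11.8 and 8.91 FPKM. The part of these markers in the level of Cxcl12 was not tested.

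Markers of retinal progenitors, the cells the protocol aims at, went the opposite way to Cxcr4. They summed to 309 and 279 FPKM without Dox and to 1010 and 1170 FPKM with it, with 7 of 8 higher and 0 lower in limma, where 4.44% of all tested genes were higher. Rax, the eye-field gene that the GFP reporter is named for, was at 1.12 and 0.82 FPKM without Dox, so the retinal label has little support from Rax in the untreated libraries, while Pax6 was at 127.76 and 118.86 FPKM there. With Dox, Rax was at 201.14 and 227.98 FPKM against 4.51 and 3.53 FPKM of Cxcr4.

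**Figure D5:**
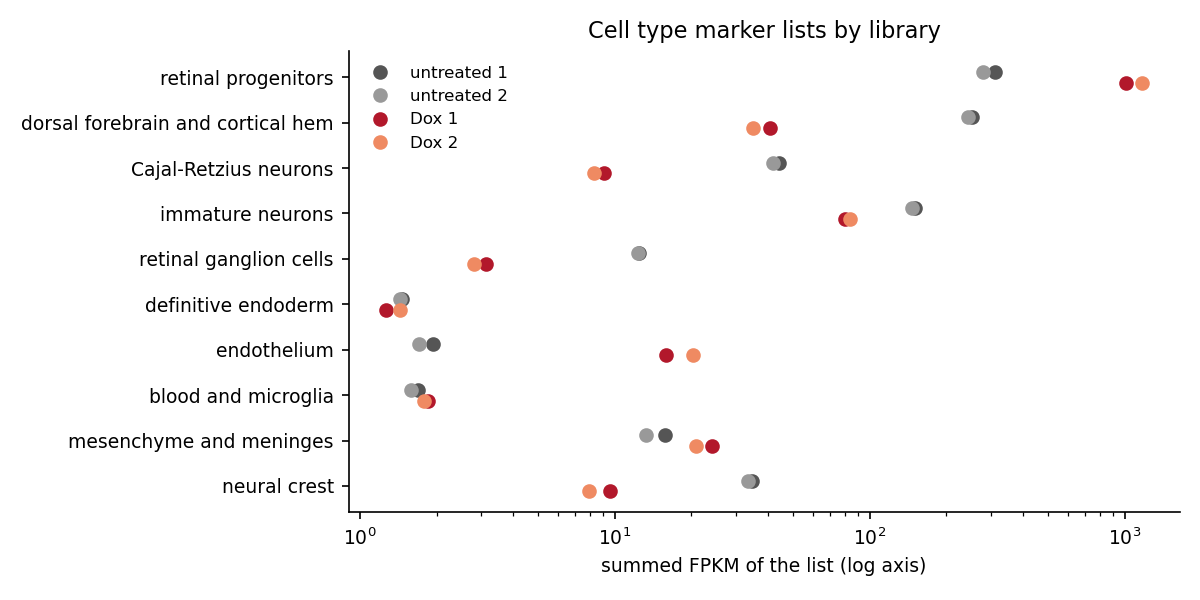
Summed FPKM of each cell type marker list (rows) by library on a log axis, grey for untreated and red for Dox. Dorsal forebrain markers sum to 253 and 242 FPKM without Dox and 40.5 and 35.0 FPKM with it, while retinal progenitor markers reach 1010 and 1170 FPKM with Dox.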

How the data were processed

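Poly(A)-selected RNA of 4 organoid libraries was sequenced as paired 150 nt reads, per the labels. The authors deposited FPKM values, 1 column per library, rounded to 2 decimals. STAR, Cuffdiff and mm10 are named in the submitters' processing notes. Their versions, the annotation release and the strand setting are not given in the sources used here. Libraries were grouped by the treatment label.

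FPKM is not a count, so log2(FPKM + 1) was fitted in limma 3.58.1 (R 4.3.3; lmFit, eBayes with an intensity trend, two-sided, Benjamini-Hochberg, threshold 0.05) on all 4 libraries with no covariate. A gene entered the fit if its mean over the libraries reached 1 FPKM (13931 genes). Differences on this scale understate low genes. The fit was tested on simulated data.

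Depth was fitted from the steps of low values of single-transcript genes. Between 89.7% and 90.4% of those came within 0.2 of a whole fragment (40% by chance).

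The 3 genes, the gene lists and the naming rule were chosen with earlier results of these data known. Named are the 3 genes, up to 5 called genes per pathway list with the largest difference, the 5 closest patterns per gene among 11461 eligible, and Mettl3, Rax and eGFP. Others were named as markers or background after their values were seen. Symbols with several rows were read on the reference chromosomes. Alternatives were the pseudocount, the minimum, TPM, median centring, no trend, the replicate block and each library left out. The labels give all 4 libraries the same batch tag, so no batch could be separated. Some single genes of the lists are not reported here by name, but they stay in the counts and sums.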

Additional observations from a re-analysis of the deposited data

How the results depend on the processing

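The differences of Cxcr4, Ackr3 and Cxcl12 kept their sign in each alternative run, and their size depended on the pseudocount by construction. A pseudocount of 0.1 gave -3.64, -0.891 and 0.717 in that order, and one of 5 gave -2.63, -0.312 and 0.105. Rescaling to TPM gave 0.391 for Cxcl12. With one library left out at a time, the difference of group means was -3.51 to -3.23 for Cxcr4, -0.685 to -0.640 for Ackr3 and 0.301 to 0.389 for Cxcl12. Ackr3 and Cxcl12 lie under a minimum of 5 FPKM, so no value is given for them at that setting.

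Over all genes, 619 were called higher and 678 lower in limma. Without the minimum the counts were 336 and 409, sharing 566 genes with those 1297, and with a minimum of 5 FPKM 408 and 413, sharing 818. Fits without one library, in which the lone library is assumed to vary like the other group, called 262 to 320 higher and 331 to 377 lower.

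Without the minimum, the ligand list had 1 higher (Cxcl14, at 0.02 to 0.38 FPKM) and 1 lower, the further ligands and co-receptors 1 higher and 2 lower (Pnoc besides Ramp2), the desensitization list 0 lower and the extracellular list 0 lower. With the minimum of 5 FPKM, which tests fewer genes, the ligand list had 1 lower, the further ligands 1 higher and the desensitization list 0 lower. The extracellular list had 1 lower with TPM and 1 lower without the trend, in both because Ext1 was lost. Without one library, the further ligands had 1 to 2 higher, the desensitization list 0 to 0 lower and the extracellular list 2 to 4 higher and 0 to 0 lower. The cause of these changes was not tested. Cx3cl1, Penk, Ramp2, Gnai1, Hs3st1 and Mmp2 passed in every alternative that tested them, and no named gene changed sign.

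Replicate numbers are shared between groups, with no sign that they pair libraries (r of the deviations -0.0435 over 13931 genes). Adding a replicate block left 532 calls higher and 602 lower. With this block the extracellular list had 1 lower, because Ext1 was lost (adjusted p = 0.102 in limma). The block changed no other call of a named gene. The 2 libraries a group limit every SD.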
